A study of Mus musculus with 4 samples.

Results

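Trnp1, Flrt1, Flrt3, Lzts1 and Adgrg1 are mouse genes known for altering the folding of the cortex, or its supply of basal progenitors, when they are raised or removed. In mice the cortex is smooth, and its radial glia divide at the ventricle and produce intermediate progenitors and neurons that climb along the radial fibers. Folding is linked to how many progenitors leave the ventricular surface, how migrating neurons adhere to each other and how well the outer basement membrane holds. Trnp1 encodes a nuclear protein of radial glia that favors their self-renewal. Flrt1 and Flrt3 encode adhesion proteins on the surface of migrating neurons. Lzts1 encodes a leucine zipper protein of newborn neurons that loosens their apical junctions as they detach, and Adgrg1, also called Gpr56, encodes an adhesion G protein-coupled receptor of radial glia that binds collagen III.

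The 5 genes were taken by name from a table of 26433 genes with the reads counted on each, and all 5 were among the 15786 genes with enough reads to test. Bulk RNA sequencing was performed on E15 cerebral cortex of 2 cKI f/+ and 2 WT mice, all labelled as strain C57BL/6. The cKI f/+ mice carry human SERPINA3 under the CAG promoter in the Rosa26 locus, behind a stop cassette that Nestin-Cre removes in Nestin-positive cells and their progeny. Founders were bred with B6D2F2 mice before the cross to Nestin-Cre mice of C57BL/6 background. The controls are labelled wild type and described as littermates, and whether they carried Nestin-Cre or the floxed allele alone is not given in the sources used here. The table names the libraries KI2 and KI3 for cKI f/+ mice and WT1 and WT3 for WT mice, and these names do not match the numbers of single samples in the labels. The methods define replicates of mouse experiments in general as different embryos, while the labels name no embryo for a library, and the p-values measure the spread between these libraries. Transcripts of the transgene were not analysed here.

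The libraries held 17423512 to 18119444 counts, and 3 counts, taken as the floor of detection, equal 0.166 to 0.172 CPM (counts scaled to a library total of 1000000), which covers counting error only. The summed CPM of 8 radial glia markers lay between 2224 and 2380, and that of 8 neuron markers between 5831 and 6494, so that both cell types of the labelled tissue were present in each library. The methods call the tissue telencephalic. The summed CPM of 7 markers of the ventral telencephalon was 238 in KI2, 249 in KI3 and 244 in WT1, and highest in WT3 at 306. Of the genes in 9 marker lists of cell types, 0 were called, beside 0.120% of all genes. Sex-linked transcripts separated the groups. Xist had 13223 counts in KI2 and 11882 in KI3 but 5 in either WT library, and Eif2s3y on chromosome Y had 1 and 0 counts against 1149 and 1147. Embryo sex and genotype cannot be told apart for any gene below. Choroid plexus transcripts were unequal as well, with a summed CPM of 4 markers of 7.89 in KI2 and 60.4 in KI3 against 0.454 in WT1 and 1.72 in WT3. Ttr made up most of it in cKI f/+ mice, and Kcnj13 had at most 1 count.

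No folding regulator passed the test between cKI f/+ and WT mice, and in all 5 the groups overlapped. The test was edgeR's quasi-likelihood test over all 15786 genes with Benjamini-Hochberg adjustment, in which 19 genes, or 0.120%, had an adjusted p under 0.05. The sex-linked genes Xist, Ddx3y, Eif2s3y, Kdm5d and Uty were among these 19. Of the 5 folding regulators, edgeR called 0, with adjusted p-values of 0.969 to 0.9998. At an unadjusted p under 0.05 the edgeR test also gave 0 of 5, against 726 or 4.60% of all genes, and DESeq2 gave 0 of 5 at either threshold. The CPM of both cKI f/+ libraries lay above or below both WT libraries for 0 of the 5, against 33.9% of all genes. Their log2 fold changes, cKI f/+ over WT, were above 0 for 4 genes and below 0 for 1, with a median of 0.04 where the median of all genes tested was 0.00. In bulk tissue, fewer cells of a type and less RNA per cell cannot be told apart, so these values hold for the tissue and not for any cell type in it. Permuting the 4 libraries exactly, two-sided, could give no p below 0.333 for a gene on its own, and the edgeR p-values borrow their error from all genes.

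**Figure D1:**
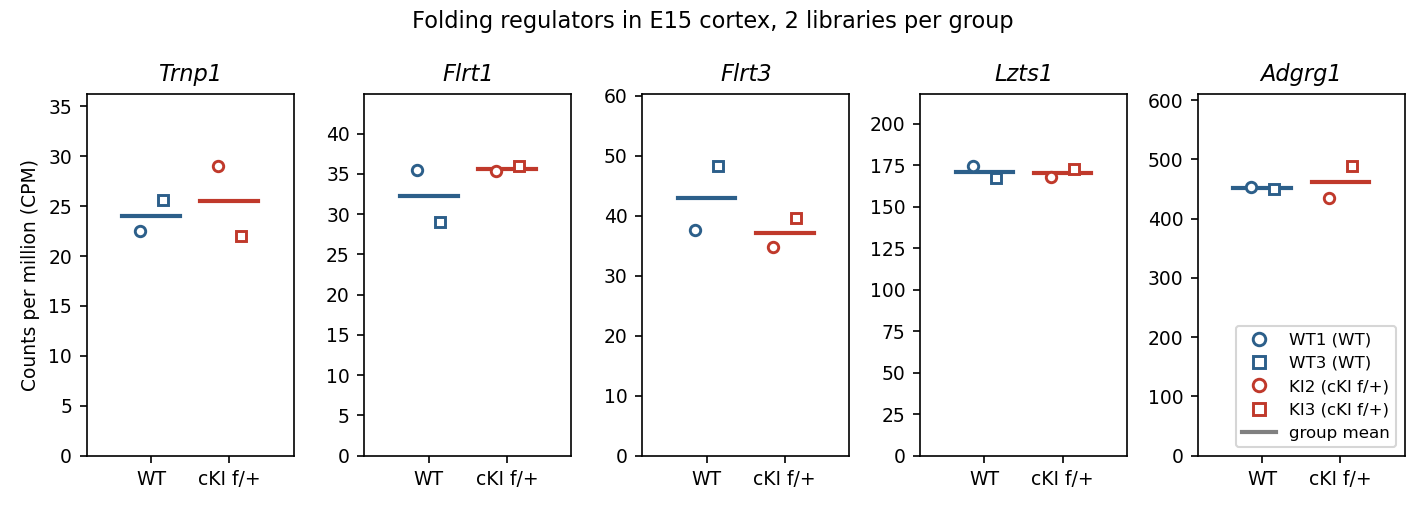
CPM of each folding regulator (y axes, each from 0) in the WT (blue) and cKI f/+ (red) libraries, with a symbol for each library and a line at the group mean. In every panel the libraries of one group reach into the range of the other, as for Trnp1, where KI2 is the highest and KI3 the lowest of the 4 libraries.

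Trnp1 (ENSMUSG00000056596) lies on the minus strand at chr4:133491100-133498550 of GRCm38, and its whole coding sequence of 669 bases lies in 1 exon. Its counts were 515 in KI2 and 399 in KI3, and 397 in WT1 and 446 in WT3, which is 29.0, 22.0, 22.5 and 25.6 CPM. KI2 was the highest of the 4 libraries and KI3 the lowest, so that both WT libraries fell between the cKI f/+ libraries. Mean Trnp1 was 25.5 ± 4.96 CPM (SD, n = 2) with the knock-in and 24.1 ± 2.16 CPM (SD, n = 2) without it. The log2 fold change of Trnp1 was 0.09 (standard error 0.15, adjusted p = 0.993 in edgeR), and its 95% interval ran from a level 15.3% lower to 33.8% higher in cKI f/+ mice. Its direction rested on single libraries. The log2 fold change was -0.14 without KI2 and 0.0016 without WT1, and 0.28 without KI3 and 0.19 without WT3. KI2 and KI3 differed by 0.40 on the log2 scale, more than 96.3% of the 2332 genes of like level (mean log2 CPM within 0.5), while the group means differed by 0.07.

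Trnp1 is also extreme in base composition. Its transcript has a GC content of 65.2%, higher than 99.5% of the tested genes with a known transcript sequence. The 129 tested genes within 2 percentage points of that GC content had a median log2 ratio of cKI f/+ over WT of 0.11. On that scale, the difference of mean log2 CPM, Trnp1 was at 0.07. For the genes around the GC content of Flrt3, 42.2%, the median log2 ratio was -0.09, and for those around Flrt1, Lzts1 and Adgrg1 it was 0.03, 0.03 and 0.05. These medians have the same sign as the log2 fold changes of Trnp1, Flrt1, Flrt3 and Adgrg1, while Lzts1 was at 0.00. For KI2 over KI3, the median was -0.07 around Trnp1 and 0.03 around Flrt3, opposite in sign to 0.40 and -0.19 in those members. The signs were the same for Flrt1, Lzts1 and Adgrg1. For WT1 over WT3 the signs differed for Adgrg1 and not for the other members. The part of GC content in the values of the members was not tested.

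Flrt1 and Flrt3 belong to a family of transmembrane proteins with leucine-rich repeats and a fibronectin domain, which bind teneurins, latrophilins and Unc5 receptors. Loss of both is known to give furrows in the mouse cortex without more progenitors. Flrt1 (ENSMUSG00000047787) lies at chr19:7092014-7105729 and Flrt3 (ENSMUSG00000051379) at chr2:140650914-140671469, both on the minus strand of GRCm38. Each has its coding sequence in 1 exon and lies inside a larger gene on the opposite strand, Flrt1 inside Macrod1 and Flrt3 inside Macrod2, with 0 exonic bases shared. The paralogs have related proteins, and the stretches where their coding sequences are identical bear on whether reads could be counted on the wrong family member. The longest identical stretch of each pair is given in capitals with 12 bases on each side, 5′ to 3′ on the coding strand, from GRCm38, first for Flrt1 (chr19:7095757-7095770) and Flrt3 (chr2:140660367-140660380) and then for Flrt1 (chr19:7096695-7096712) and its paralog Flrt2 (chr12:95779304-95779321).
Flrt1 beside Flrt3: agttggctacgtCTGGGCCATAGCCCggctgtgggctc
Flrt3 beside Flrt1: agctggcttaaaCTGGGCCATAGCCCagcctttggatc
Flrt1 beside Flrt2: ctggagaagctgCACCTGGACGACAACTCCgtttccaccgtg
Flrt2 beside Flrt1: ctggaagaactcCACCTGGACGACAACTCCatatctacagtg
These runs are 14 and 18 bases long, and the longest between Flrt3 and Flrt2 is 15 bases. Of the 4863 words of 31 bases in Flrt3 transcripts, 0 occur in the transcripts of another gene, as do 0 of 1653 in Trnp1. In Flrt1 it is 15 of 5827 words, which occur in transcripts of 2789 other genes. The genes that share most of them, Pigk and C230004F18Rik, are not of this family. Dapk1 shares 10 and had 2728 to 3196 counts.

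Flrt1 had 626 counts in KI2 and 652 in KI3, and 625 in WT1 and 506 in WT3, or 35.3, 36.0, 35.5 and 29.0 CPM. The 2 cKI f/+ libraries and WT1 were within 0.69 CPM of each other, and WT3 stood below them. The log2 fold change of Flrt1 was 0.15 (standard error 0.12, adjusted p = 0.970 in edgeR), with a 95% interval from 7.32% lower to 32.7% higher in cKI f/+ mice. Without WT3 the log2 fold change of Flrt1 was 0.01, and without WT1 it was 0.30 (unadjusted p = 0.0290, adjusted p = 0.732 in edgeR).

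Flrt3 had 617 counts in KI2 and 718 in KI3, and 662 in WT1 and 842 in WT3, or 34.8, 39.6, 37.6 and 48.3 CPM. Here WT3 stood above the other libraries, and WT1 fell between KI2 and KI3. The log2 fold change of Flrt3 was -0.20 (standard error 0.13, adjusted p = 0.969 in edgeR), with a 95% interval from 29.1% lower to 6.70% higher in cKI f/+ mice. This was the largest difference of the 5 members in either direction. Without WT3 the log2 fold change of Flrt3 was -0.01, and without WT1 it was -0.37 (unadjusted p = 0.00619, adjusted p = 0.493 in edgeR). WT1 and WT3 differed by 0.36 on the log2 scale, more than 95.7% of 2634 genes of like level, and the gap between the group means was 0.20.

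**Figure D2:**
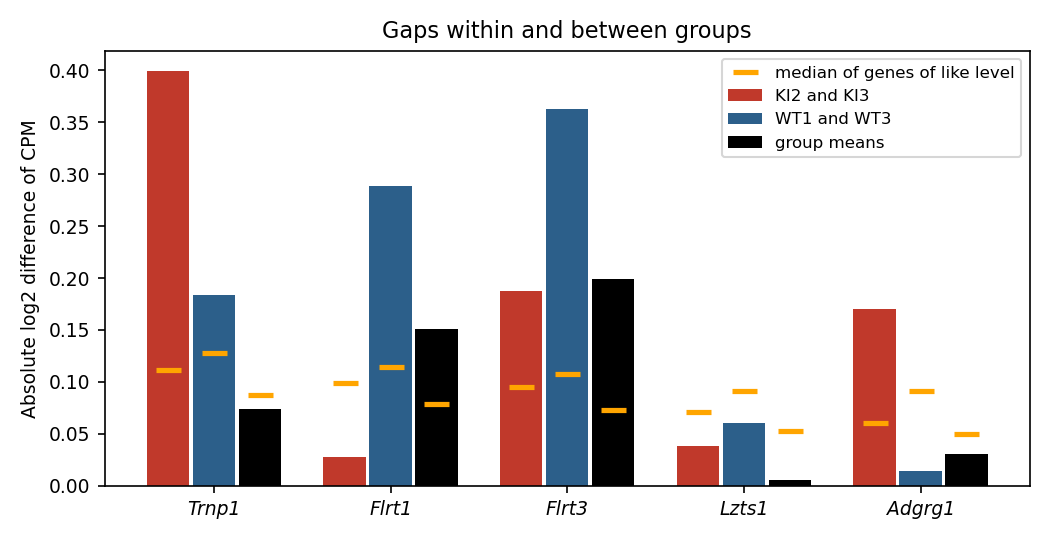
Absolute log2 difference of CPM (y axis, from 0) between KI2 and KI3 (red), between WT1 and WT3 (blue) and between the group means (black) for each folding regulator, with the median gap of genes of like level as an orange line. For each of the 5 genes a gap between libraries of one group is larger than the gap between groups. With 2 libraries per group this follows from the overlap of the groups and adds no finding. Trnp1 had 0.40 against 0.07 and Flrt3 had 0.36 against 0.20.

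WT3 held the lowest Flrt1 and the highest Flrt3 of the 4 libraries, so that the balance within the pair shifted there. Per kilobase of exon, the ratio of Flrt1 to Flrt3 was 0.841 in KI2 and 0.752 in KI3, and 0.782 in WT1 and 0.498 in WT3. WT1 lay within the range of the cKI f/+ libraries, and the shift belonged to 1 WT library and not to the WT group. The sum of both genes was 13.2 CPM per kilobase in KI2 and 14.3 in KI3, and 13.8 in WT1 and 14.9 in WT3, and the groups overlapped.

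Flrt2, the remaining family member, had 997 counts in KI2 and 971 in KI3, and 1071 in WT1 and 1164 in WT3. Both WT libraries were above both cKI f/+ libraries. The log2 fold change of Flrt2 was -0.21 (standard error 0.09), with an unadjusted p of 0.0442 and an adjusted p of 0.969 in edgeR, so it was not called. Flrt2 made up 32.7% to 36.8% of the per-kilobase sum of the 3 genes, Flrt1 21.0% to 29.4% and Flrt3 35.0% to 42.2%.

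Lzts1 (ENSMUSG00000036306) lies on the minus strand at chr8:69132669-69184225 of GRCm38. Its counts were 2980 in KI2 and 3125 in KI3, and 3073 in WT1 and 2915 in WT3, or 168.0, 172.5, 174.5 and 167.3 CPM. The highest and the lowest library were both WT. The log2 fold change of Lzts1 was 0.00 (standard error 0.08, adjusted p = 0.9998 in edgeR), and its 95% interval ran from 11.1% lower to 12.5% higher in cKI f/+ mice, the narrowest of the 5. Between the libraries of a group it differed by 0.04 in cKI f/+ mice and 0.06 in WT mice on the log2 scale, both below the median of 1255 genes of like level.

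The paralogs Lzts2 and Lzts3 had both cKI f/+ libraries above both WT libraries. Lzts2 had 1576 and 1689 counts in KI2 and KI3 against 1373 and 1509 in WT1 and WT3 (log2 fold change 0.15, adjusted p = 0.969 in edgeR). Lzts3 had 667 and 724 counts against 592 and 618 (log2 fold change 0.17, adjusted p = 0.969 in edgeR). Neither was called, and the difference between their fold changes and that of Lzts1 was not tested. The share of Lzts1 in the per-kilobase sum of the 3 genes was 42.5% in KI2 and 41.8% in KI3, and 46.5% in WT1 and 43.2% in WT3. The longest coding stretch that Lzts1 shares with a paralog has 18 bases and lies across an exon junction in both genes, so that its ends are at 69136148 and 69138357 on chromosome 8 for Lzts1 and at 130635453 and 130635778 on chromosome 2 for Lzts3. It is shown in capitals, as above, because reads that cross a junction are placed from short pieces.
Lzts1 beside Lzts3: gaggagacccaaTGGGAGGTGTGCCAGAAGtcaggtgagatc
Lzts3 beside Lzts1: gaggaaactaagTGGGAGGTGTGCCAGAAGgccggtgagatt
Of 6760 words of 31 bases in Lzts1 transcripts, 62 or 0.917% occur in transcripts of 289 other genes. Nr6a1 shares the most, 34 words, and had 98 to 108 counts, and Nmral1 shares 19 and had 1494 to 1751 counts.

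**Figure D3:**
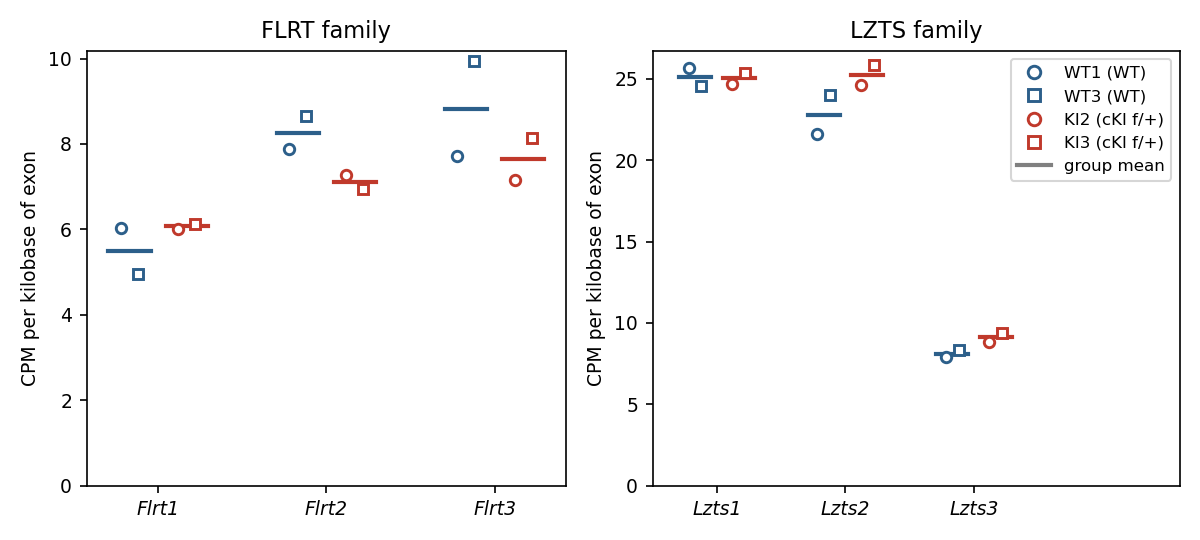
CPM per kilobase of exon (y axes, from 0) of the FLRT genes (left) and LZTS genes (right) in the WT (blue) and cKI f/+ (red) libraries, with lines at the group means. The groups overlap for Flrt1, Flrt3 and Lzts1, while for Flrt2 both WT libraries are higher and for Lzts2 and Lzts3 both cKI f/+ libraries are higher, none of them past the adjusted threshold.

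Adgrg1 (ENSMUSG00000031785) lies on the plus strand at chr8:94974751-95014217 of GRCm38. It had 7708 counts in KI2 and 8858 in KI3, and 7988 in WT1 and 7826 in WT3, or 434.6, 488.9, 453.5 and 449.2 CPM. Both WT libraries lay between the 2 cKI f/+ libraries, as for Trnp1, but with KI3 as the highest. The log2 fold change of Adgrg1 was 0.04 (standard error 0.08, adjusted p = 0.994 in edgeR), with a 95% interval from 9.31% lower to 16.3% higher in cKI f/+ mice. Its direction rested on KI3, without which the log2 fold change was -0.05. KI2 and KI3 differed by 0.17 on the log2 scale, more than 90.7% of 333 genes of like level, while WT1 and WT3 differed by 0.01. The nearest tested gene after it, its relative Adgrg3, had 19 and 10 counts in KI2 and KI3 and 20 and 22 in WT1 and WT3, and its relative Adgrg5 had 8, 0, 6 and 1 counts in KI2, KI3, WT1 and WT3, too few to test. The longest coding stretch of Adgrg1 that is identical in a relative has 14 bases, and 0 of its 5509 words of 31 bases occur in another gene.

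**Figure D4:**
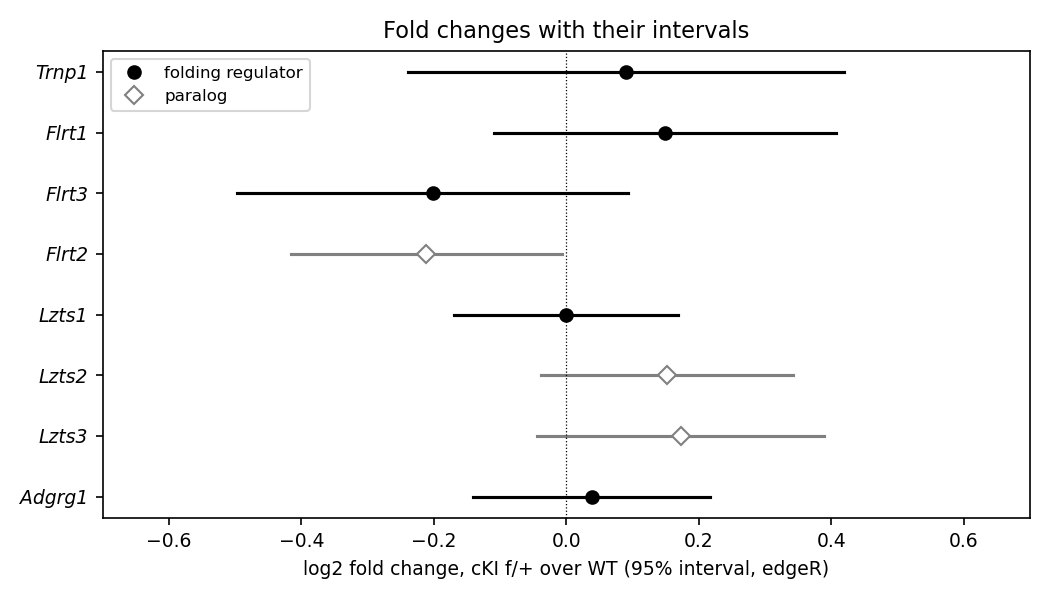
log2 fold change, cKI f/+ over WT (x axis), of the 5 folding regulators (filled circles) and 3 paralogs (open diamonds), with the 95% interval from edgeR as a line. The intervals of all 5 regulators include 0, the narrowest being that of Lzts1 and the widest that of Trnp1, and among the paralogs that of Flrt2 ends just below 0.

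The 5 genes spanned a wide range of levels. Per kilobase of exon, the mean over the 4 libraries was 84.2 CPM for Adgrg1, 25.1 for Lzts1, 14.99 for Trnp1, 8.24 for Flrt3 and 5.78 for Flrt1. This order held within each library. Adgrg1 was higher than 96.7% of the tested genes on this scale, Lzts1 than 85.3%, Trnp1 than 75.6%, Flrt3 than 61.5% and Flrt1 than 53.0%. The ranges of neighbours in the order did not overlap, the closest being Flrt3, at 7.15 to 9.93, and Flrt1, at 4.95 to 6.13, where the spread of Flrt3 between libraries was wider than the gap between the ranges. Precision followed level in part. The half-width of the 95% interval of the log2 fold change was 0.17 for Lzts1 and 0.18 for Adgrg1, and 0.26 for Flrt1, 0.30 for Flrt3 and 0.33 for Trnp1.

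Each member's course over the 4 libraries was compared with other tested genes by the root mean square distance of centered log2 CPM. The genes compared had a mean log2 CPM within 1 of the member. For Trnp1 the nearest were Slc1a1 (420, 324, 320 and 360 counts in KI2, KI3, WT1 and WT3), Ccdc92b and Sptbn4, and 150 of 4532 genes lay within a distance of 0.1. For Flrt1 they were Ksr1, Osgep and Ing5, with 657 of 4951 genes within 0.1. For Flrt3 they were Cept1, Rchy1 and Ptx3, with 181 of 5073 genes. For Lzts1 and Adgrg1, 2033 of 2572 and 512 of 712 genes lay within 0.1, led by Lman2, Kctd20 and Ddx24 for Lzts1 and by Wdr6, U2af2 and Fscn1 for Adgrg1. The root mean square spread of these 2 members was itself 0.025 and 0.062. A gene without any change over the libraries would thus also lie within 0.1 of them. With 4 libraries such likeness is a description.

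FLRT proteins act through partners on neighbouring cells, and 13 genes of such partners, Flrt2 included, were all tested. None was called by edgeR's quasi-likelihood test in either direction, beside 0.120% of all genes. The unadjusted p was under 0.05 for 2 with higher and 2 with lower levels in the knock-in, beside 4.60% of all genes. The median log2 fold change was 0.04, with 7 genes above 0 and 6 below. The Unc5 receptors carry repulsive signals, and 0 of the 4 passed the adjusted threshold. Unc5d had 991 and 891 counts in KI2 and KI3 against 1188 and 1096 in WT1 and WT3 (log2 fold change -0.31, unadjusted p = 0.0114, adjusted p = 0.969 in edgeR). Unc5a had 1313 and 1441 counts against 958 and 1210 (log2 fold change 0.32, unadjusted p = 0.0226, adjusted p = 0.969 in edgeR), and Unc5b had 539 and 557 against 471 and 447 (log2 fold change 0.23, unadjusted p = 0.0471). Unc5c had 49 and 55 counts against 47 and 75, and its groups overlapped (log2 fold change -0.26, unadjusted p = 0.387). Of the 12 alternatives tried, Unc5a passed the adjusted threshold only when WT3 was left out. Of the teneurins, Tenm1, Tenm3 and Tenm4 overlapped between the groups and Tenm2 did not, with 1212 and 1063 counts against 1025 and 963 (log2 fold change 0.17, unadjusted p = 0.125). The latrophilins Adgrl1, Adgrl2 and Adgrl3 and the receptor Robo1 overlapped.

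The ligands and downstream proteins of Adgrg1 formed a list of 13 genes, of which 12 were tested and 0 called, beside 0.120% of all genes. Their median log2 fold change was -0.01. The genes of the G proteins Gna12, Gna13, Gnaq and Gna11 and of the GTPase Rhoa had log2 fold changes between -0.05 and 0.05. Col3a1 encodes the collagen that Adgrg1 binds in the basement membrane. It was the only gene of the list at an unadjusted p under 0.05, beside 4.60% of all genes. It had 117 and 121 counts in KI2 and KI3 and 72 and 64 in WT1 and WT3, which gave a log2 fold change of 0.78 (standard error 0.20, unadjusted p = 0.00325, adjusted p = 0.667 in edgeR). Col3a1 is made by meningeal fibroblasts, and the summed CPM of 6 meningeal markers that include it was 21.4 in KI2 and 19.4 in KI3 against 9.99 in WT1 and 11.1 in WT3. Of the 5 of these that were tested, Col1a1, Col1a2, Col3a1 and Dcn had an unadjusted p under 0.05, beside 4.60% of all genes. Their levels were higher in the knock-in. Foxc1 overlapped between the groups, and 0 of the 5 were called. Lum was too low to test, with 0 to 6 counts. The part of meningeal tissue in the value of Col3a1 was not tested. The receptor and its ligand thus differed in size of change, 0.04 against 0.78, with neither called, and the difference between them was not tested.

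Lzts1 acts at the apical junction, and 16 genes of cell detachment and of that junction were all tested. Of these, 0 were called and 0 had an unadjusted p under 0.05 in edgeR, beside 0.120% and 4.60% of all genes. The smallest unadjusted p-values belonged to Plekha7, Lzts3 and Lzts2, and Plekha7, a junction protein, had 599 and 672 counts in KI2 and KI3 against 528 and 546 in WT1 and WT3 (log2 fold change 0.21, unadjusted p = 0.0601). The cadherin Cdh2 and the catenin Ctnnb1 had log2 fold changes of -0.06 and -0.06. Those of Insm1, Akna, Scrt1 and Scrt2, which promote the detachment of progenitors or neurons, were -0.06, -0.10, -0.05 and 0.08. The median of the list was -0.03.

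Among 24 other mouse genes linked to folding or basal progenitors, 23 were tested and 0 called, beside 0.120% of all genes. Their median was -0.03 on the log2 scale, with 11 genes above 0 and 12 below. The groups did not overlap for 9 of them, 3 higher and 6 lower in the knock-in. Over all genes tested the share was 33.9%, with 2523 higher and 2835 lower. Fgfr3, a receptor for fibroblast growth factors, had 2933 and 3309 counts in KI2 and KI3 against 2400 and 2654 in WT1 and WT3. Its log2 fold change was 0.28 (unadjusted p = 0.0118, adjusted p = 0.969 in edgeR). Fgfr3 was the only gene of this list at an unadjusted p under 0.05, beside 4.60% of all genes. Hopx, a marker of outer radial glia, had 124 and 144 counts against 97 and 133, and the groups overlapped. Eomes, a marker of intermediate progenitors, had 6164 and 6292 against 5985 and 5538 (log2 fold change 0.08, adjusted p = 0.977 in edgeR). Pax6 and Tnc of the same list lay the other way, with log2 fold changes of -0.11 and -0.17, and their groups overlapped. Ptprz1 had 3523 and 2589 counts in KI2 and KI3 against 3686 and 3637 in WT1 and WT3. Both cKI f/+ libraries were below both WT libraries (log2 fold change -0.29, unadjusted p = 0.0611, adjusted p = 0.969 in edgeR).

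All 32 genes of human cortical malformations, which include those of lissencephaly and cobblestone cortex, were tested. Of these, 0 were called, beside 0.120% of all genes, and the median was -0.02 on the log2 scale. Tubb2b, a tubulin of young neurons, had 55170 and 54657 counts in KI2 and KI3 against 45672 and 50072 in WT1 and WT3 (log2 fold change 0.17, unadjusted p = 0.0404). Its adjusted p was 0.969 in edgeR, and it was not called. The 8 neuron markers, which include Dcx and Tubb3 of this list, all had log2 fold changes under 0, from -0.28 to -0.01, with 0 called. Of all 15786 genes tested, 7704 were below 0. Other marker lists were also uneven, with 5 of 6 markers of intermediate progenitors above 0 and 6 of 7 of blood below 0. Groups that did not overlap were found for 5 of 13 FLRT partners, 3 of 12 genes of Adgrg1 signaling, 7 of 16 of detachment, 9 of 23 other folding genes and 8 of 32 malformation genes, beside 33.9% of all genes.

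**Figure D5:**
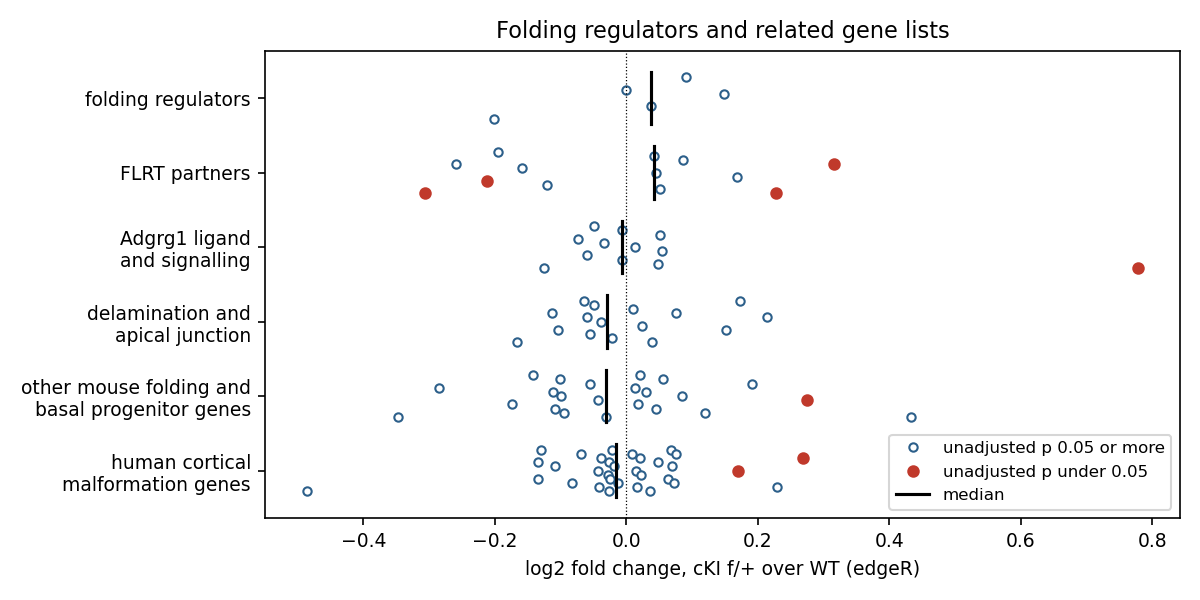
log2 fold change, cKI f/+ over WT (x axis), of each tested gene of the 5 folding regulators and the 5 related lists, with filled points for an unadjusted p under 0.05 and a black line at the median of each list. The medians lie between -0.03 and 0.04, and the isolated filled point at 0.78 is Col3a1.

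The genes next to the members on their chromosomes, 10 in all, included 0 that were called, beside 0.120% of all genes. Nudc, next to Trnp1, had 3048 and 3524 counts in KI2 and KI3 against 2835 and 2988 in WT1 and WT3 (log2 fold change 0.15, adjusted p = 0.969 in edgeR). Macrod2, the host of Flrt3, had 592 and 577 counts in KI2 and KI3 and 551 and 605 in WT1 and WT3, with WT3 at 605 where Flrt3 had 842, and Macrod1, the host of Flrt1, had 115, 98, 90 and 110 counts in KI2, KI3, WT1 and WT3.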

How the data were processed

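Per the labels and the study's methods, total RNA of E15 cortex was sequenced (Illumina HiSeq), and the labels describe triplicates where 2 libraries per group were analysed here. The submitters' processing notes list TopHat2 2.0.12, Bowtie2 2.2.3 and HTSeq 0.6.0, with no role given, and the build mm9. The gene positions are those of GRCm38, and 24502 of the 26378 genes with an identifier in GENCODE M21 have the same position there. The authors deposited raw counts per gene, not normalized. Strandedness of the counting is not given in the sources used here. The deposited table also holds the authors' own comparison, which was not used: a mean normalized signal, a ratio (fold change) with its log2, and a p-value with its adjusted form.

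CPM are counts scaled to the library total, and per kilobase values divide them by the exonic length in GENCODE M21. edgeR 4.0.16 (R 4.3.3) kept genes with its default filter, normalized by TMM and tested cKI f/+ against WT without covariates, with a threshold of 0.05 on the adjusted p. The standard error is the log2 fold change divided by the square root of F. The common biological coefficient of variation was 8.72%. Libraries of a group were not copies (chi-square per degree of freedom 4.36 in cKI f/+ and 5.67 in WT). The test was checked on simulated data. The fit was repeated with 3 further normalizations, with 2 further filters, with X and Y genes left out, without each library in turn, and with DESeq2 1.42.0 and the likelihood ratio test of edgeR. The members and gene lists were chosen with earlier results of these data known. Named genes are the members, their paralogs, chromosomal neighbours and 3 nearest genes by course, sex-linked genes and, in each list, the 3 genes with the smallest p. Unc5b, Foxc1, Hopx, Eomes, Insm1 and the other list members named outside that rule were chosen after their values were seen. The result of 1 gene named by the rule is left out and not reported here. Sequences were read from GRCm38 with GENCODE M21 coding exons.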

Additional observations from a re-analysis of the deposited data

How the results depend on the processing

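The number of the 5 folding regulators called was 0 under each of the 12 alternatives. The sign of Lzts1, which lies at 0.00, turned to -0.0014 with DESeq2, -0.0020 with DESeq2 size factors in edgeR, -0.0053 with library size only, -0.0055 with genes of at least 1 count in all, and -0.00094 with X and Y genes left out. With each library left out in turn, log2 fold changes ranged from -0.14 to 0.28 for Trnp1 (below 0 without KI2), from -0.048 to 0.11 for Adgrg1 (below 0 without KI3), from -0.028 to 0.031 for Lzts1, from 0.01 to 0.30 for Flrt1 and from -0.37 to -0.01 for Flrt3. With a library left out, 1 group has a single library that is assumed to vary like the other group. Over the 8 remaining alternatives Trnp1, Flrt1, Flrt3 and Adgrg1 kept their sign and moved by less than 0.01. The number of all genes called, 19 in the fit reported, was 54 in the likelihood ratio test, 6 when every library had to reach 10 counts, 11 with X and Y genes left out, and from 46 to 71 with a library left out, and the cause was not tested. Among FLRT partners, leaving out a library gave 0 to 1 called genes, the 1 being Unc5a without WT3. The other gene lists kept 0 called genes under all 12 alternatives. The labels number the WT samples 3 and 6 and the cKI f/+ samples 2 and 7, and give no litter or pair for a library. No paired analysis was therefore possible. Each folding regulator had at least 397 counts in every library, and with 2 libraries per group the 95% intervals reached up to 0.33 on either side of the log2 fold change.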
